A study of Homo sapiens with 8 samples.

Results

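The mitosis genes are a set of 52 gene symbols whose products carry cells through mitosis, from entry and spindle assembly to chromosome separation and cytokinesis. All 52 were found among the 19583 rows of the deposited expression table, and all 52 were among the 12645 genes tested, whose normalised read count averaged 1 or more, so no member was lost to low expression. Polyadenylated RNA had been sequenced from MDA-MB-231, a human breast cancer cell line grown in serum, in 8 libraries. They form 4 groups of 2, which are shCHD4 at 1% O2, shSC at 1% O2, shCHD4 at 20% O2 and shSC at 20% O2, with 24 hours at the stated oxygen level. The shCHD4 label stands for a hairpin against CHD4, the chromatin remodelling ATPase of the NuRD complex, and shSC for a scrambled control hairpin, so the control cells carry a hairpin too. No label says how many hairpins, clones or separate cultures lie behind a group, and the p-values below reflect library-to-library spread that may be technical in part or whole.

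CDK1 bound to cyclin B starts mitosis once CDC25 phosphatases remove its inhibitory phosphates, and the Polo and Aurora kinases then drive centrosome and spindle assembly. Kinetochores tie chromosomes to spindle microtubules, and the spindle checkpoint holds back the anaphase-promoting complex (APC/C) with its activator CDC20 until every chromosome is attached, after which separase cuts cohesin and a furrow splits the cell. Most of these genes are transcribed late in the cell cycle under the DREAM repressor and the later B-MYB and FOXM1 activators, which act through the cell cycle genes homology region (CHR), with NF-Y bound at nearby CCAAT boxes. In proliferating breast cancer cultures their RNA is widely used as a sign of how many cells are dividing.

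RefSeq promoter windows on GRCh38.p14, from 250 bases before to 50 bases after the start of transcription, were at hand for 44 of the 52 genes, and AURKA, BIRC5, TPX2, FOXM1, BUB3, TTK, CENPM and UBE2C were not among them. A CHR (TTTGAA or TTCGAA, either strand) was found in 32 of the 44 windows, 72.7%, against 16.6% of all 27305 windows of the same length. CCAAT on either strand was found in 34 windows, 77.3% against 35.7%, and both motifs in 26, 59.1% against 6.58%. At least 2 CCAAT boxes were present in 21 windows, 47.7% against 11.3%, and an E2F motif (TTCCCGC or TTGGCGC, either strand) in 12, 27.3% against 9.33%. KIF2C, CENPE, CDC25C and CDC25B held neither CHR nor CCAAT in this window. A match describes the letters and is no evidence of binding. The 5 promoters below belong to PLK1, which had the largest fall at 1% O2 under shSC, to KIF20A and ANLN, which differed most upward between labels, to TOP2A, an abundant member that was also higher, and to KIF18A, which differed most downward. Capitals mark CHR and CCAAT motifs on either strand (so TTCAAA and ATTGG too), and E2F motifs are left in lower case. PLK1 lies at chr16:23678639-23678938, plus strand, KIF20A at chr5:138178862-138179161, plus strand, ANLN at chr7:36389612-36389911, plus strand, TOP2A at chr17:40417847-40418146, minus strand, and KIF18A at chr11:28108107-28108406, minus strand.
PLK1: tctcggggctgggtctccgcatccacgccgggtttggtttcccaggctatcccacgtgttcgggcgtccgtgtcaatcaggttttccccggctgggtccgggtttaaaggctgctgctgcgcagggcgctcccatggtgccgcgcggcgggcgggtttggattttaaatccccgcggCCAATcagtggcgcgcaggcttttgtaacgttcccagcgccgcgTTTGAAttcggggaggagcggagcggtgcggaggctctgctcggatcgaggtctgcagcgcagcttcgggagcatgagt
KIF20A: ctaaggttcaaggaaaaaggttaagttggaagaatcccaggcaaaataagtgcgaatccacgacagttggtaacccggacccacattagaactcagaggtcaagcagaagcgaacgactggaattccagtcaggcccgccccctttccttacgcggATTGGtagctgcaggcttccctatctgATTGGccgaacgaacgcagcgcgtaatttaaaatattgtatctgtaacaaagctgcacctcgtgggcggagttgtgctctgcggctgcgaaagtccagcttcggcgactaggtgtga
ANLN: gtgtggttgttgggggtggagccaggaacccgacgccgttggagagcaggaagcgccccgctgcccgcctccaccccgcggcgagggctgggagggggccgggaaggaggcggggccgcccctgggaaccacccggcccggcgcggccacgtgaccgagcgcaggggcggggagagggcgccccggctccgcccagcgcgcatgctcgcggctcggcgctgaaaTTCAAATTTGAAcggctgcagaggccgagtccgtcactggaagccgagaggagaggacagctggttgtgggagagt
TOP2A: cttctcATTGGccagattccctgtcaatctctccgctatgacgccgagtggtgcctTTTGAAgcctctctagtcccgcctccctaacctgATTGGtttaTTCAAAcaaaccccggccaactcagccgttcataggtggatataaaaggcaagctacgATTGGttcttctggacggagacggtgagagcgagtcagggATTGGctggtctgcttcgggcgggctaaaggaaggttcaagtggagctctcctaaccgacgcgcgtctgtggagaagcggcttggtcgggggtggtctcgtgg
KIF18A: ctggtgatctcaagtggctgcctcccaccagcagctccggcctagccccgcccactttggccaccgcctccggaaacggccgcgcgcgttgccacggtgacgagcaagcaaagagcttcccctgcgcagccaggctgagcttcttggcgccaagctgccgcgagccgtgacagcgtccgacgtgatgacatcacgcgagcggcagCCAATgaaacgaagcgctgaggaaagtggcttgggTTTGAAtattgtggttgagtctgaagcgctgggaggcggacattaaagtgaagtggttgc

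Counting from the start of transcription on the gene's strand, the PLK1 window had 1 CCAAT box at -73 and 1 CHR at -29. The KIF18A window had 1 CCAAT box at -45 and 1 CHR at -10. Both are among the 26 of 44 windows with the 2 motifs, and no link of motifs to expression was tested. ANLN had 2 adjoining CHRs, at -26 and -20, on opposite strands, and no CCAAT. KIF20A had 2 CCAAT boxes, at -94 and -67, and no CHR of these letters. TOP2A had 4 CCAAT boxes, at -244, -160, -93 and -53, and 2 CHRs, at -194 and -151.

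Whole reads recovered from the table came to between 24947627 and 31903585 per library, and each mitosis gene rested on 197 to 34063 reads in a library. Values below are normalised read counts, the deposited reads scaled per library but not by gene length. CHD4 itself had 299 and 287 in shCHD4 against 279.7 and 278 in shSC libraries at 1% O2, and 293 and 305 against 299 and 298 at 20% O2, so the targeted RNA was not lower (log2 difference 0.071, limma adjusted p = 0.129 at 1% O2, and 0.0018, adjusted p = 0.968 at 20% O2). Differences between labels are therefore given as differences between libraries labelled shCHD4 and shSC. VIM (3472 to 6856) and CD44, EGFR and ZEB1 of this mesenchymal line were high, and ESR1, PGR and CDH1 were at or below 0.331, while EPCAM (4.17 to 7.56) and GATA3 (8.38 to 14.6) were present. The 9 leukocyte, endothelial and fibroblast markers found in the table summed to 157 to 163 in shCHD4 and 143 to 149.8 in shSC libraries at 1% O2, and to 154 to 157 and 135 to 137 at 20% O2. CD68 alone gave 108 to 122 of this, COL1A1 gave 19.1 to 32.6 and PDGFRB 1.75 to 4.21, and VWF, CDH5 and COL1A2 were at or near 0. COL1A1 averaged 32.4 in shCHD4 against 22.4 in shSC libraries at 1% O2, and 29.2 against 20.1 at 20% O2. For CD68 the means were 119.9 against 117.9, and 119.1 against 108.3. PDGFRB was also higher under shCHD4 at both oxygen levels, and CD14 and PECAM1 were lower. This sum was higher under shCHD4, as many mitosis genes were, and its part in their differences was not tested. The 2 shSC libraries at 1% O2 differed most in the mitosis genes: replicate 1 was below replicate 2 in 42 of 52, with a median log2 difference of -0.074, against 18 to 31 of 52 in the other groups. The same count was not made over all genes tested, so whether it was particular to the mitosis genes is unknown.

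Per kilobase of the longest GENCODE 29 coding transcript, the most abundant mitosis genes were UBE2C, the ubiquitin-conjugating enzyme of the APC/C, at 249.7 normalised reads per kilobase over the 8 libraries, TPX2, which activates Aurora A on the spindle, at 195, and ANLN, the furrow protein anillin, at 159. CCNB1 was at 146, TOP2A at 133 and CDK1 at 102. The least abundant were SPC24 of the NDC80 complex at 5.95, the spindle protein HMMR at 8.78 and ESPL1, which encodes separase, at 8.80. Summed over all 52 genes, the normalised read count was 11287 and 11233 in shCHD4 against 9382.5 and 9723.6 in shSC libraries at 1% O2, and 11267 and 11213 against 9704.4 and 9824.7 at 20% O2. The shCHD4 libraries were thus above all shSC libraries at either oxygen level, while 1% and 20% O2 differed by far less. Abundant members weigh most in such a sum, and ANLN and TOP2A made up much of the gap between labels. ANLN averaged 1168 in shCHD4 against 464 in shSC libraries at 1% O2, and 973 against 436 at 20% O2. TOP2A averaged 955 against 542, and 1011 against 567. By value alone, 40 members were higher and 12 lower in shCHD4 libraries at 1% O2, and 36 higher and 16 lower at 20% O2. In whole cultures, fewer cells in mitosis and less of these RNAs per cell cannot be told apart.

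Between 1% and 20% O2 the share of mitosis genes called, 19.2% under shCHD4 and 30.8% under shSC, was near that of all genes, and more members fell than rose. Under shCHD4, 3 of 52 rose and 7 fell at 1% against 20% O2, 5.77% and 13.5% of the set, where 12.3% of all genes tested rose and 10.7% fell (23% called in either direction). Under shSC, 3 rose and 13 fell, 5.77% and 25% of the set, where 17.4% of all genes rose and 17.9% fell (35.2% called). The median log2 difference of the 52 was -0.033 under shCHD4 and -0.066 under shSC, against -0.0037 and -0.011 over all genes tested. No member differed 2-fold: the log2 differences ran from -0.35 to 0.26 under shCHD4 and from -0.28 to 0.30 under shSC. CDC20, CDC25B, CDCA5, CENPM, FOXM1 and KIF15 fell under both labels, none rose under both, none was called in opposite directions, and 32 passed under neither label. Across the 52 genes the differences under the 2 labels, which share no library, had a Pearson r of 0.42 and a Spearman rho of 0.39, against a Pearson r of 0.71 over the 12645 genes, all sharing the same libraries.

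**Figure D1:**
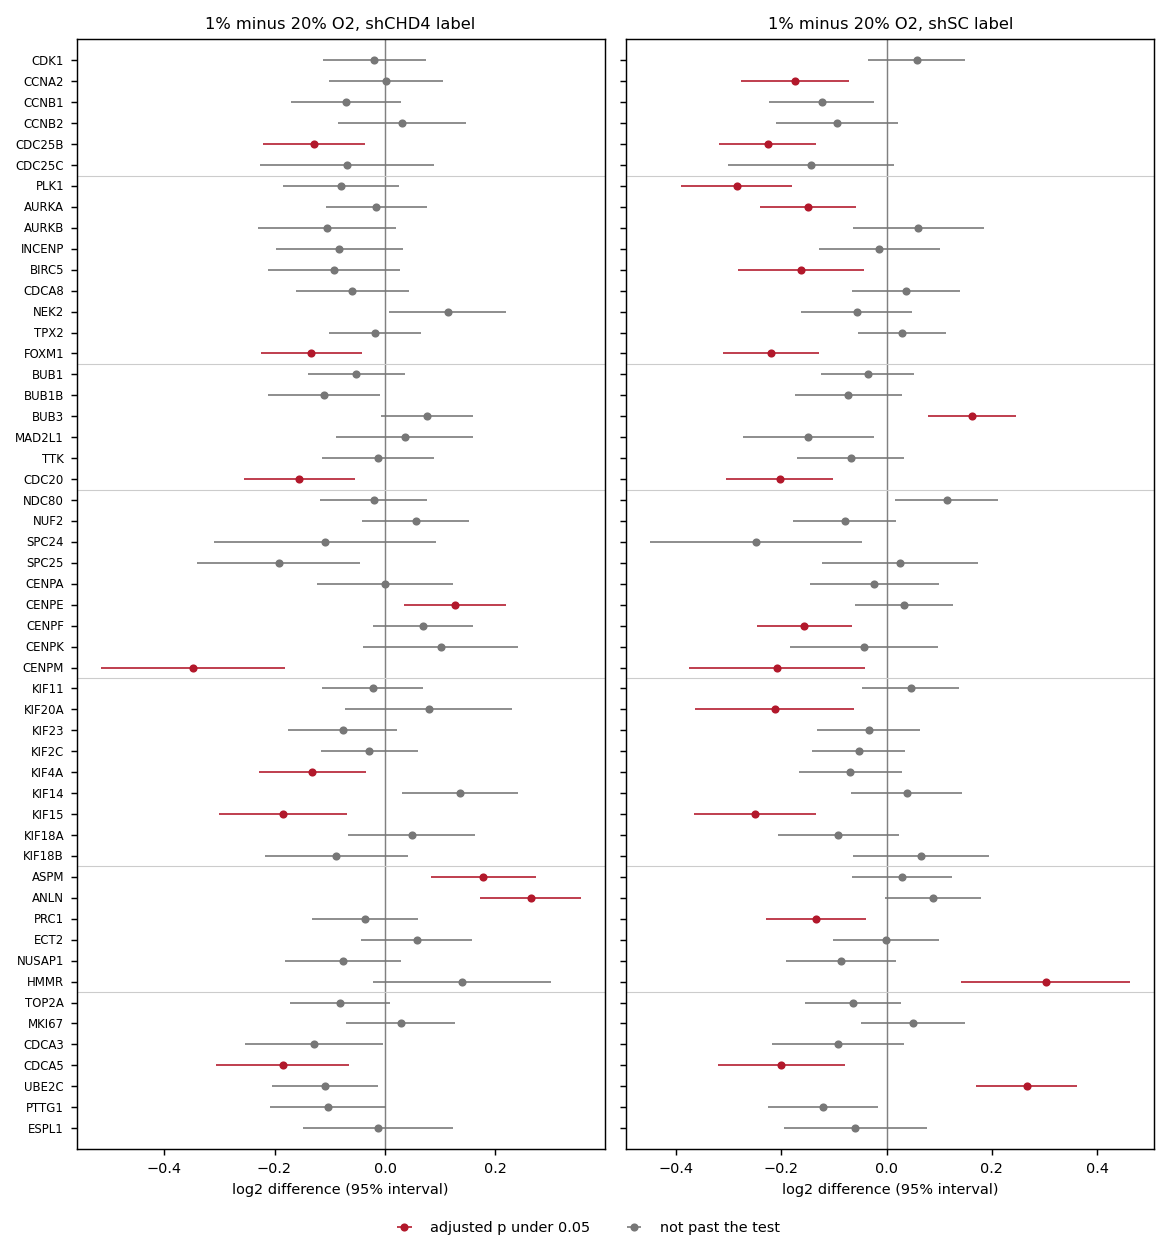
Log2 difference of each of the 52 mitosis genes between 1% and 20% O2, with its 95% interval, in cells labelled shCHD4 (left) and shSC (right), with lines between the role groups. Genes past an adjusted p of 0.05 are red: 3 higher and 7 lower under shCHD4, and 3 higher and 13 lower under shSC, all within 0.35 of 0 on the log2 scale.

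Of the 6 genes of the CDK1 switch, none rose, 1 fell under shCHD4 and 2 fell under shSC. CDK1, the master kinase, had 208 and 210.1 at 1% O2 against 215 and 209 at 20% O2 under shCHD4, and 190.2 and 194 against 179 and 190.3 under shSC, groups that overlapped under either label (log2 difference -0.019 ± 0.044 SE, limma adjusted p = 0.791, and 0.057 ± 0.044, adjusted p = 0.337). CCNB1, its cyclin B partner, had 309.9 and 316 at 1% O2 against 342 and 316 at 20% O2 under shCHD4, and 290.2 and 306 against 333 and 317 under shSC. Its 1% O2 libraries were below those at 20% O2 under shSC without passing (-0.12 ± 0.047, adjusted p = 0.0514), and the groups overlapped under shCHD4 (-0.071 ± 0.047, adjusted p = 0.297). CDC25B, a phosphatase that activates CDK1, had 180.0 and 179 at 1% O2 against 195 and 198 at 20% O2 under shCHD4, and 149 and 156 against 176 and 180.4 under shSC. It fell under both labels with no overlap, 1.09-fold under shCHD4 (-0.13 ± 0.044, adjusted p = 0.0418) and 1.17-fold under shSC (-0.23 ± 0.044, adjusted p = 0.000644). CCNA2, cyclin A, fell under shSC (-0.17 ± 0.049, adjusted p = 0.0101) and was at 0.0023 under shCHD4 (adjusted p = 0.979). The shCHD4 call of CDC25B ended without any 1 of the 4 shCHD4 libraries (adjusted p 0.123 to 0.183), and the fall of CCNA2 no longer passed without shSC 1% O2 replicate 1 (adjusted p = 0.17) or shSC 20% O2 replicate 2 (0.066).

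Of the 9 genes for Polo, Aurora and NEK kinases, their partners and FOXM1, 1 fell under shCHD4 and 4 fell under shSC. PLK1, Polo-like kinase, had 125 and 124 at 1% O2 against 129 and 133 at 20% O2 under shCHD4, and 91.7 and 100.1 against 119 and 115 under shSC. Its 1% O2 libraries were below the 20% O2 libraries under both labels, and it fell 1.22-fold under shSC (log2 difference -0.28 ± 0.050 SE, limma adjusted p = 0.000246), the largest fall of the set there, but did not pass under shCHD4 (-0.079 ± 0.050, adjusted p = 0.265). FOXM1, the transcription factor that activates many of the others, had 204 and 210.1 at 1% O2 against 228 and 226 at 20% O2 under shCHD4, and 179 and 189 against 215 and 213 under shSC. It fell 1.10-fold under shCHD4 (-0.13 ± 0.043, adjusted p = 0.0335) and 1.16-fold under shSC (-0.22 ± 0.043, adjusted p = 0.000751), again with no overlap. AURKA, the centrosomal Aurora kinase, had 285 and 291 at 1% O2 against 299 and 283 at 20% O2 under shCHD4, and 225 and 234 against 256 and 253 under shSC. It fell under shSC (-0.15 ± 0.043, adjusted p = 0.0126), and its groups overlapped under shCHD4 (-0.015 ± 0.043, adjusted p = 0.83). AURKB, the Aurora kinase of the chromosomal passenger complex, had 107 and 111 at 1% O2 against 119 and 116 at 20% O2 under shCHD4, and 93.9 and 108 against 100.2 and 92.99 under shSC. It passed under neither label (-0.11 ± 0.059, adjusted p = 0.21 under shCHD4, where the groups did not overlap, and 0.060 ± 0.059, adjusted p = 0.457 under shSC, where they did). BIRC5, survivin of the same complex, fell under shSC (-0.16 ± 0.057, adjusted p = 0.0329). The FOXM1 call under shCHD4 ended without any 1 of the 4 shCHD4 libraries (adjusted p 0.0932 to 0.244). Without shSC 1% O2 replicate 1 the shSC calls of AURKA (adjusted p = 0.104) and BIRC5 (0.312) ended, and that of BIRC5 also without shSC 20% O2 replicate 1 (0.262).

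Of the 6 spindle checkpoint genes, CDC20 fell under both labels and BUB3 rose under shSC. CDC20, the APC/C activator that the checkpoint restrains, had 207 and 209 at 1% O2 against 239 and 225 at 20% O2 under shCHD4, and 198 and 214 against 242 and 232 under shSC. Its 1% O2 libraries lay below under either label, 1.11-fold lower under shCHD4 (-0.15 ± 0.048, adjusted p = 0.0274) and 1.15-fold lower under shSC (-0.20 ± 0.048, adjusted p = 0.00324). BUB3, a scaffold of the checkpoint complex, had 336 and 339 at 1% O2 against 319.8 and 319.6 at 20% O2 under shCHD4, and 507 and 493 against 445 and 449 under shSC. It was higher at 1% O2 in every library of either label, by 1.12-fold under shSC (0.16 ± 0.040, adjusted p = 0.00396) and without passing under shCHD4 (0.076 ± 0.040, adjusted p = 0.172). BUB1, the checkpoint kinase, had 291 and 295 at 1% O2 against 309 and 299 at 20% O2 under shCHD4, and 199 and 204 against 204 and 209.6 under shSC, which overlapped under shSC, did not under shCHD4 and passed under neither label (-0.052 ± 0.042, adjusted p = 0.385, and -0.036 ± 0.042, adjusted p = 0.534). BUB1B, MAD2L1 and TTK did not pass either, with log2 differences from -0.11 to 0.036 under shCHD4 and from -0.15 to -0.068 under shSC. The CDC20 call ended under shSC without 1% O2 replicate 1 (adjusted p = 0.0634), and under shCHD4 without 1% O2 replicate 1 (0.157), 1% O2 replicate 2 (0.11) or 20% O2 replicate 1 (0.256).

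Of the 9 kinetochore and centromere genes, CENPM fell under both labels, CENPE rose under shCHD4 and CENPF fell under shSC. CENPM, a subunit of the constitutive centromere network, had 13.8 and 14.2 at 1% O2 against 18.9 and 17.04 at 20% O2 under shCHD4, and 13.4 and 13.4 against 15.7 and 15.4 under shSC. It was the largest fall of the set under shCHD4, 1.27-fold (-0.35 ± 0.079, adjusted p = 0.00431), and was at the threshold under shSC (-0.21 ± 0.079, adjusted p = 0.049). CENPE, the kinetochore motor that brings chromosomes to the plate, had 213 and 208 at 1% O2 against 188 and 197 at 20% O2 under shCHD4, and 272 and 265 against 256 and 269 under shSC, with no overlap under shCHD4 (0.13 ± 0.044, adjusted p = 0.0459) and overlap under shSC (0.032 ± 0.044, adjusted p = 0.601). CENPF, a large kinetochore protein, had 585 and 552 at 1% O2 against 527 and 557 at 20% O2 under shCHD4, and 596 and 588 against 655 and 664 under shSC. Its 1% O2 libraries were below under shSC (-0.16 ± 0.043, adjusted p = 0.0093) and straddled the others under shCHD4 (0.069 ± 0.043, adjusted p = 0.264). CENPA, the histone H3 variant that marks centromeres, had 46.2 and 45.9 at 1% O2 against 45.95 and 46.2 at 20% O2 under shCHD4, and 36.3 and 38.7 against 39.2 and 37.02 under shSC, all within overlapping ranges (-0.00029 ± 0.058, adjusted p = 0.998, and -0.023 ± 0.058, adjusted p = 0.793). NDC80, NUF2, SPC24 and SPC25, which form the microtubule-binding NDC80 complex, passed under neither label. The shSC call of CENPM ended without any 1 of the 8 libraries (adjusted p 0.0521 to 0.139), its shCHD4 call without shCHD4 20% O2 replicate 1 (0.0834), and that of CENPE without any 1 of the 4 shCHD4 libraries (0.0605 to 0.303).

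Of the 9 kinesins, KIF15 fell under both labels, KIF4A fell under shCHD4 and KIF20A fell under shSC. KIF15, which helps keep the spindle bipolar, had 75.9 and 75.4 at 1% O2 against 85.5 and 86.5 at 20% O2 under shCHD4, and 53.9 and 60.2 against 68.5 and 67.1 under shSC. The groups did not overlap under either label, with falls of 1.14-fold (-0.18 ± 0.055, adjusted p = 0.0225) and 1.19-fold (-0.25 ± 0.055, adjusted p = 0.00189). KIF20A, a central spindle motor needed for cytokinesis, had 192 and 199 at 1% O2 against 192 and 179 at 20% O2 under shCHD4, and 57.1 and 71.00 against 75.8 and 71.9 under shSC. It was higher without passing under shCHD4 (0.079 ± 0.072, adjusted p = 0.451) and fell under shSC (-0.21 ± 0.072, adjusted p = 0.0282), and the difference between the 2 effects did not pass (0.29 ± 0.10, adjusted p = 0.118). KIF4A, a chromosome-bound kinesin, fell 1.10-fold under shCHD4 (-0.13 ± 0.046, adjusted p = 0.0467) and did not pass under shSC (-0.069 ± 0.046, adjusted p = 0.265). The other 6 motors, KIF11, KIF23, KIF2C, KIF14, KIF18A and KIF18B, passed under neither. Without any 1 of the 4 shCHD4 libraries the shCHD4 calls of KIF15 (adjusted p 0.095 to 0.121) and KIF4A (0.11 to 0.282) ended. Under shSC, KIF20A no longer passed without shSC 1% O2 replicate 1 (adjusted p = 0.538) or shSC 20% O2 replicate 1 (0.127).

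Of the 6 spindle and cytokinesis genes, ANLN and ASPM rose under shCHD4, and under shSC HMMR rose and PRC1 fell. ANLN, anillin, the scaffold of the cleavage furrow, had 1169.9 and 1166 at 1% O2 against 975 and 970.2 at 20% O2 under shCHD4, and 447 and 481 against 428 and 444 under shSC. It was higher at 1% O2 with no overlap under either label, 1.20-fold under shCHD4 (log2 difference 0.26 ± 0.043 SE, limma adjusted p = 0.000281), and without passing under shSC (0.088 ± 0.043, adjusted p = 0.121). ASPM, a spindle pole protein, had 241 and 230.4 at 1% O2 against 201 and 215 at 20% O2 under shCHD4, and 252 and 246 against 241 and 247 under shSC, a rise under shCHD4 (0.18 ± 0.045, adjusted p = 0.00871) and overlapping groups under shSC (0.030 ± 0.045, adjusted p = 0.642). HMMR, which binds spindle microtubules, had 27.8 and 30.5 at 1% O2 against 27.2 and 25.5 at 20% O2 under shCHD4, and 30.03 and 29.03 against 22.2 and 25.7 under shSC. It rose 1.23-fold under shSC (0.30 ± 0.077, adjusted p = 0.00512) and was higher without passing under shCHD4 (0.14 ± 0.077, adjusted p = 0.198). PRC1, which bundles midzone microtubules, fell under shSC (-0.13 ± 0.046, adjusted p = 0.0288), and ECT2 and NUSAP1 passed under neither label. The ASPM call ended without shCHD4 1% O2 replicate 1 (adjusted p = 0.133) or shCHD4 20% O2 replicate 1 (0.144), the HMMR call without shSC 20% O2 replicate 1 (0.0741), and the PRC1 call without shSC 1% O2 replicate 1 (0.212) or shSC 20% O2 replicate 1 (0.146). An antisense gene overlaps HMMR and another overlaps PRC1, and whether reads were counted by strand is unknown.

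Of the 7 genes for chromosome structure, cohesion and the APC/C, CDCA5 fell under both labels and UBE2C rose under shSC. UBE2C had 216 and 217 at 1% O2 against 236 and 230.3 at 20% O2 under shCHD4, and 254 and 251 against 219 and 201 under shSC. It rose 1.20-fold under shSC (0.27 ± 0.046, adjusted p = 0.000203), while under shCHD4 its 1% O2 libraries were the lower ones (-0.11 ± 0.046, adjusted p = 0.0953). CDCA5, sororin, which protects cohesin until anaphase, had 139.6 and 136 at 1% O2 against 160.3 and 154 at 20% O2 under shCHD4, and 81.3 and 94.2 against 101 and 100.2 under shSC, falls of 1.14-fold (-0.19 ± 0.057, adjusted p = 0.0266) and 1.15-fold (-0.20 ± 0.057, adjusted p = 0.0113). MKI67 and TOP2A, 2 proliferation markers of this group, passed under neither label. Among all 52 members, whose RNA is used as a sign of dividing cells too, 13 fell and 3 rose under shSC. Under shCHD4 7 fell and 3 rose. MKI67, which encodes the Ki-67 coat of mitotic chromosomes, had 959.6 and 889 at 1% O2 against 872 and 939.6 at 20% O2 under shCHD4, and 752 and 777 against 735 and 741 under shSC (0.029 ± 0.047, adjusted p = 0.702, and 0.050 ± 0.047, adjusted p = 0.432). TOP2A, the topoisomerase that untangles sister chromatids, had 952 and 958 at 1% O2 against 1004 and 1018 at 20% O2 under shCHD4, and 527 and 558 against 551 and 582 under shSC, slightly lower at 1% O2 without passing (-0.081 ± 0.043, adjusted p = 0.183, and -0.063 ± 0.043, adjusted p = 0.27). PTTG1, securin, and ESPL1, the separase it inhibits, passed under neither label. The shCHD4 call of CDCA5 ended without any 1 of the 4 shCHD4 libraries (adjusted p 0.0502 to 0.184) and its shSC call without shSC 1% O2 replicate 1 (0.23). The UBE2C rise ended after centring on the 40 nearest genes (adjusted p = 0.109), whose median under shSC was 0.16.

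Single libraries weighed on the oxygen counts. Without shSC 1% O2 replicate 1, 5 of the 52 fell under shSC in place of 13, and the range over the left-out libraries was 5 to 16. Under shCHD4 the 10 calls became 2 without shCHD4 1% O2 replicate 1, 3 without replicate 2 of that group, 1 without shCHD4 20% O2 replicate 1 and 4 without its replicate 2. The calls over all 12645 genes fell in the same fits, to 1326, 1451, 1344 and 1958 in place of 2903. The median difference of the 52 was -0.017 without shCHD4 20% O2 replicate 1 and -0.056 without its replicate 2, in place of -0.033 under shCHD4, and -0.023 without shSC 1% O2 replicate 1, in place of -0.066 under shSC. ANLN under shCHD4, and PLK1, FOXM1, CDC25B, KIF15 and BUB3 under shSC, passed in each of the 18 alternatives. With no variance trend in the model 9 members passed under shSC and 2 under shCHD4, and with no filter on low values 11 and 3. Quantile normalization gave 2 higher and 10 lower under shCHD4, a stronger lean downward, and 3 higher and 17 lower under shSC. DESeq2 on the recovered reads ended the calls of CDC25B, CENPE and KIF4A under shCHD4 (adjusted p = 0.0629, 0.0704 and 0.0662) and of BIRC5, CENPM, KIF20A and PRC1 under shSC (0.0685, 0.203, 0.0504 and 0.0604).

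**Figure D2:**
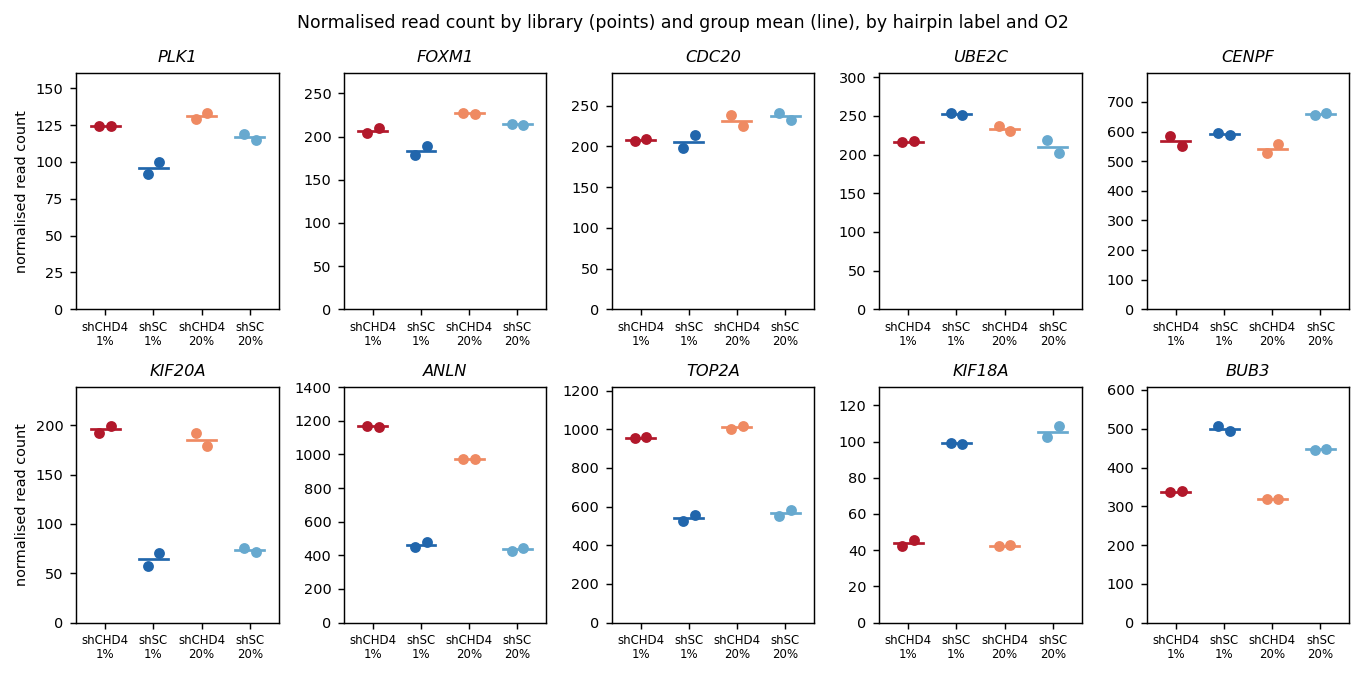
Normalised read count in each library (points) and group mean (lines) for 10 mitosis genes, with shCHD4 left of shSC at 1% O2 and then at 20% O2, on axes that start at 0. KIF20A, ANLN and TOP2A were higher and KIF18A and BUB3 lower in all shCHD4 libraries, PLK1, FOXM1 and CDC20 had smaller differences by oxygen, and UBE2C was highest in shSC at 1% O2.

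Between labels the mitosis genes differed far more. At 1% O2, 28 of 52 were higher and 9 lower in shCHD4 than in shSC libraries, 53.8% and 17.3%, where 38.2% of all genes tested were higher and 39.2% lower (77.4% called). At 20% O2, 31 were higher and 9 lower, 59.6% and 17.3%, where 37% of all genes were higher and 38.6% lower (75.6% called). Most genes tested passed, and the share of members called, 71.2% at 1% and 76.9% at 20% O2, was near that background, while among the members higher calls outnumbered lower ones. The median log2 difference of the 52 was 0.17 at 1% and 0.18 at 20% O2, against -0.0067 and -0.0091 over all genes. After quantile normalization it was 0.28 and 0.27, against 0.053 and 0.060 over all genes, with 38 members higher and 7 lower at 1% O2 and 35 higher and 8 lower at 20% O2. Higher at both oxygen levels were 27 members, lower at both were 7 (BUB3, CENPE, ECT2, KIF14, KIF18A, KIF2C and NDC80), and UBE2C was called in opposite directions. At each level 4 members passed 2-fold, which were KIF20A, ANLN and SPC24 higher and KIF18A lower. The 2 comparisons share no library, and paired values below are log2 differences or folds at 1% and at 20% O2.

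**Figure D3:**
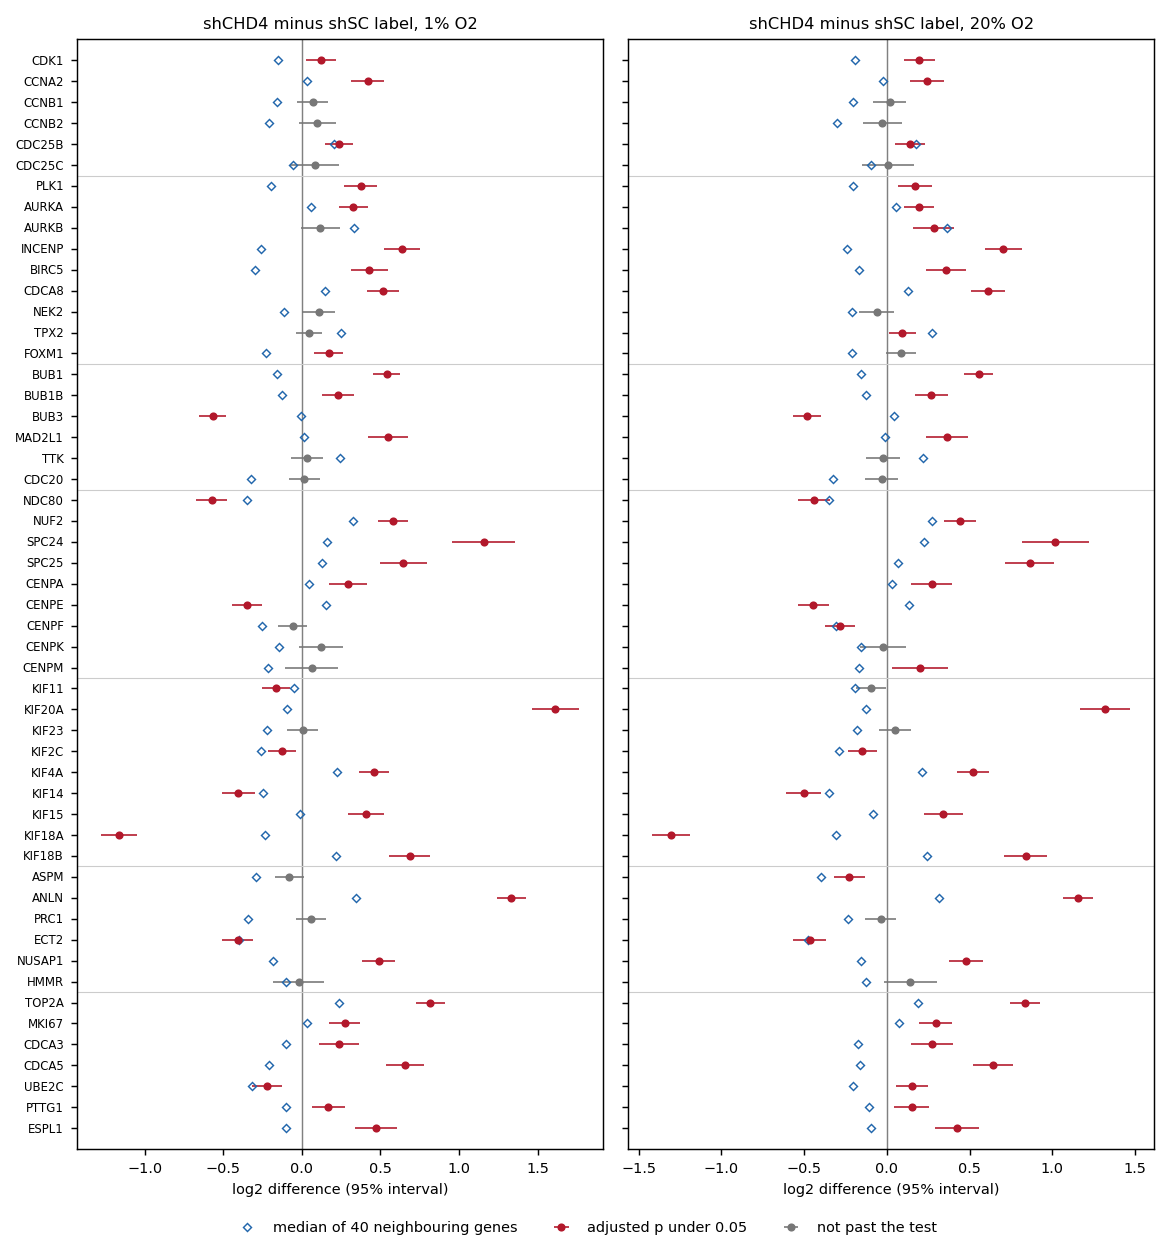
Log2 difference of each of the 52 mitosis genes between shCHD4 and shSC libraries, with its 95% interval, at 1% O2 (left) and 20% O2 (right), red where past an adjusted p of 0.05. Open blue diamonds give the median difference of the 40 nearest tested genes on the chromosome: KIF20A, ANLN, SPC24, BUB3 and KIF18A lie far from theirs, while ECT2 and CENPF at 20% O2 lie on theirs.

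The kinesins included the largest differences in both directions, with 4 of 9 higher and 4 lower at 1% O2 and 4 higher and 3 lower at 20% O2. KIF20A had 192 and 199 in shCHD4 against 57.1 and 71.00 in shSC libraries at 1% O2, and 192 and 179 against 75.8 and 71.9 at 20% O2. It was 3.06-fold higher at 1% O2 (log2 difference 1.61 ± 0.072 SE, limma adjusted p = 3.66e-13) and 2.50-fold higher at 20% O2 (1.32 ± 0.072, adjusted p = 7.03e-12). Its exons overlap those of CDC23, an APC/C gene on the opposite strand that averaged 63.5 and was itself higher by 0.56 and 0.53. The part of CDC23 in the KIF20A value was not tested. KIF18A, which dampens chromosome movements at microtubule plus ends, had 42.04 and 45.7 in shCHD4 against 99.1 and 98.8 in shSC libraries at 1% O2, and 42.1 and 42.6 against 102 and 109 at 20% O2. Every shCHD4 library was less than every shSC library, by 2.24-fold at 1% O2 (-1.17 ± 0.055, adjusted p = 7.36e-13) and 2.47-fold at 20% O2 (-1.31 ± 0.055, adjusted p = 1.49e-13). Exons of KIF18A overlap METTL15 on the other strand, which averaged 28.2, and the part of METTL15 in the KIF18A value was not tested. KIF18B, its relative that shortens microtubules, went the other way, with 80.3 and 78.3 in shCHD4 against 46.8 and 51.5 in shSC libraries at 1% O2, and 81.1 and 87.7 against 44.9 and 48.98 at 20% O2 (0.69 ± 0.062, adjusted p = 8.58e-09, and 0.84 ± 0.062, adjusted p = 5.26e-10). KIF14, a midbody kinesin, had 148 and 139 in shCHD4 against 186 and 194 in shSC libraries at 1% O2, and 129 and 132 against 177 and 193 at 20% O2, lower with no overlap (-0.41 ± 0.050, adjusted p = 6.68e-07, and -0.50 ± 0.050, adjusted p = 4.02e-08). KIF4A and KIF15 were higher by 0.46 and 0.41 at 1% O2 and by 0.52 and 0.34 at 20% O2. KIF2C, the microtubule-depolymerising kinesin, was lower by small amounts (-0.12 and -0.15). Its call at 1% O2 ended without shCHD4 1% O2 replicate 1 (adjusted p = 0.0603), shCHD4 1% O2 replicate 2 (0.0604) or shSC 1% O2 replicate 2 (0.0579), and it passed as higher relative to its 40 nearest genes once centred on them (0.13 and 0.14, adjusted p = 0.0108 and 0.0088). Quantile normalization ended the calls of KIF2C (adjusted p = 0.515 and 0.109) and the call of KIF11, the motor that pushes spindle poles apart, at 1% O2 (-0.16, which became -0.015, adjusted p = 0.751).

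Among the 9 kinetochore and centromere genes, 4 were higher and 2 lower at 1% O2, and 5 higher and 3 lower at 20% O2. Within the NDC80 complex the subunits parted. SPC24 had 18.5 and 17.8 in shCHD4 against 7.04 and 8.77 in shSC libraries at 1% O2, and 19.3 and 19.97 against 9.72 and 9.14 at 20% O2, 2.23-fold and 2.03-fold higher (1.16 ± 0.095, adjusted p = 2.56e-09, and 1.02 ± 0.095, adjusted p = 1.66e-08). SPC25, its partner at the inner end of the complex, had 37.02 and 39.8 in shCHD4 against 23.02 and 25.8 in shSC libraries at 1% O2, and 45.1 and 42.8 against 23.2 and 24.7 at 20% O2, 1.56-fold and 1.82-fold higher (0.65 ± 0.070, adjusted p = 1.22e-07, and 0.86 ± 0.070, adjusted p = 2.37e-09). NUF2 was higher as well (0.58 and 0.44). NDC80, which dimerises with NUF2, was lower with no overlap, with 109 and 112 in shCHD4 against 163 and 165 in shSC libraries at 1% O2, and 116 and 108 against 151 and 153 at 20% O2 (-0.57 ± 0.046, adjusted p = 1.92e-09, and -0.44 ± 0.046, adjusted p = 8.5e-08). Around NDC80 the 40 closest genes had medians of -0.35 and -0.35, and its call at 20% O2 ended after centring on them (adjusted p = 0.101). CENPE, at group means of 210.4 ± 3.81 against 268 ± 4.94 at 1% O2 and 193 ± 6.13 against 262 ± 9.34 at 20% O2 (SD, n = 2), was lower (-0.35 ± 0.044, adjusted p = 8.97e-07, and -0.44 ± 0.044, adjusted p = 3.9e-08). CENPA was higher (0.29 and 0.27). The small rise of CENPM at 20% O2 (0.20) ended without shCHD4 20% O2 replicate 1 (adjusted p = 0.257), shSC 20% O2 replicate 1 (0.0567) or shSC 20% O2 replicate 2 (0.0897).

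Of the 6 spindle and cytokinesis genes, 2 were higher and 1 lower at 1% O2, and 2 were higher and 2 lower at 20% O2. ANLN averaged 1168 ± 2.92 in shCHD4 against 464 ± 23.9 in shSC libraries at 1% O2, and 973 ± 3.72 against 436 ± 10.8 at 20% O2 (SD, n = 2). It was 2.52-fold and 2.23-fold higher (1.33 ± 0.043, adjusted p = 3.08e-15, and 1.16 ± 0.043, adjusted p = 2.75e-14), and the KIAA0895 gene that overlaps its exons on the other strand averaged only 6.66. NUSAP1, a microtubule-bundling protein, was higher (0.49 and 0.48). ECT2, the exchange factor that switches on RhoA for the furrow that anillin organises, had 251 and 251 in shCHD4 against 334 and 333 in shSC libraries at 1% O2, and 239 and 244 against 316 and 352 at 20% O2. It was lower with no overlap (-0.41 ± 0.048, adjusted p = 3.14e-07, and -0.47 ± 0.048, adjusted p = 5.54e-08), but the 40 nearest genes had medians of -0.40 and -0.47, and both calls ended after centring on them (adjusted p = 0.837 and 0.881). ASPM was lower at 20% O2 (-0.23 ± 0.045, adjusted p = 0.000172) and did not pass at 1% O2 (-0.079 ± 0.045, adjusted p = 0.118), and relative to its 40 nearest genes it was higher, by 0.17 at 20% O2 (adjusted p = 0.00218). HMMR and PRC1 passed at neither level.

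All 7 genes for chromosome structure, cohesion and the APC/C were higher at 20% O2, and 6 were higher and 1, UBE2C, lower at 1% O2. TOP2A averaged 955 ± 4.08 in shCHD4 against 542 ± 22.2 in shSC libraries at 1% O2, and 1011 ± 10.04 against 567 ± 21.6 at 20% O2 (SD, n = 2). It was 1.76-fold and 1.78-fold higher (0.82 ± 0.043, adjusted p = 4.11e-12, and 0.83 ± 0.043, adjusted p = 3.24e-12). CDCA5 was higher by 0.65 and 0.64, ESPL1 by 0.47 and 0.42, MKI67 by 0.27 and 0.29, and CDCA3, which takes part in mitotic entry, by 0.24 and 0.27. PTTG1 was higher by 0.17 and 0.15. Its calls ended without shCHD4 1% O2 replicate 2 at 1% O2 (adjusted p = 0.0824), and without shCHD4 20% O2 replicate 1 (0.149) or shSC 20% O2 replicate 2 (0.0707) at 20% O2.

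Of the 9 Polo, Aurora and NEK kinase genes with their partners and FOXM1, 6 were higher at 1% O2 and 7 at 20% O2, and none was lower. The chromosomal passenger complex had its largest differences in INCENP, the scaffold (1.55-fold and 1.63-fold higher), and CDCA8, borealin (1.43-fold and 1.53-fold). BIRC5 was higher by 0.43 and 0.36, while AURKB, the kinase of the complex, passed at 20% O2 (0.28) and not at 1% O2 (0.12 ± 0.059, adjusted p = 0.0787). PLK1 was higher by 0.38 and 0.17 and AURKA by 0.33 and 0.19. FOXM1 passed at 1% O2 (0.17 ± 0.043, adjusted p = 0.00164) and not at 20% O2 (0.085 ± 0.043, adjusted p = 0.0856). At 20% O2 it did pass as higher after quantile normalization (0.17, adjusted p = 0.00183) and after centring (0.29, adjusted p = 2.46e-05). The AURKB value at 20% O2 turned to -0.078 (adjusted p = 0.229) after centring on its 40 nearest genes, whose median was 0.36. Uncentred, TPX2 was higher at 20% O2 by 0.095. That call ended without shCHD4 20% O2 replicate 1 (adjusted p = 0.25), without either shCHD4 1% O2 library (0.0659 and 0.066) or without either shSC 20% O2 library (0.0794 and 0.0763), and the value turned to -0.18 after centring.

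Of the 6 genes of the CDK1 switch, CDK1, CCNA2 and CDC25B were higher at both oxygen levels and none was lower. CCNA2 was higher by 0.42 and 0.24, CDC25B by 0.24 and 0.14, and CDK1 by 0.12 and 0.20. Both B-type cyclins, CCNB1 (0.069 ± 0.047, adjusted p = 0.189, and 0.017 ± 0.047, adjusted p = 0.754) and CCNB2 (0.098 ± 0.055, adjusted p = 0.113, and -0.027 ± 0.055, adjusted p = 0.666), did not pass. The CDK1 call at 1% O2 ended without shCHD4 1% O2 replicate 1 (adjusted p = 0.0635), shCHD4 1% O2 replicate 2 (0.0965) or shSC 1% O2 replicate 1 (0.0855), and that of CDC25B at 20% O2 without shCHD4 20% O2 replicate 2 (0.0578). CDC25B matched its 40 nearest genes (0.20 and 0.18), and both its calls ended after centring on them (adjusted p = 0.561 and 0.512). CCNA2 overlaps EXOSC9 on the other strand, which averaged 73.2, and the part of EXOSC9 in the CCNA2 value was not tested.

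In the spindle checkpoint 3 of 6 genes were higher and 1 was lower at each oxygen level. BUB1 was higher by 0.54 and 0.56, MAD2L1, the inhibitor that binds CDC20, by 0.55 and 0.36, and BUB1B, its partner in the inhibitory complex, by 0.23 and 0.27. BUB3, the fourth protein of that complex with CDC20, averaged 337 ± 2.05 in shCHD4 against 500.3 ± 10.1 in shSC libraries at 1% O2, and 319.7 ± 0.145 against 447 ± 2.55 at 20% O2 (SD, n = 2). It was 1.48-fold and 1.40-fold lower (-0.57 ± 0.040, adjusted p = 2.23e-10, and -0.48 ± 0.040, adjusted p = 2.49e-09), where its 40 nearest genes had medians of -0.0069 and 0.044. CDC20 (0.016 ± 0.048, adjusted p = 0.765, and -0.032 ± 0.048, adjusted p = 0.561) and TTK (0.032 ± 0.048, adjusted p = 0.561, and -0.023 ± 0.048, adjusted p = 0.673) did not pass.

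The differences of members between labels went partly with those of the genes around them. The 40 tested genes nearest to each member had medians between -0.40 and 0.34 at 1% O2 and between -0.47 and 0.36 at 20% O2, with 34 and 35 of the 52 medians below 0. Across the 52 members the member's own difference and that median had a Pearson r of 0.43 at 1% and 0.50 at 20% O2, a description over genes that share libraries. Centred on those neighbours, 38 members were higher and 9 lower at 1% O2, and 38 were higher and 6 lower at 20% O2, and the median difference was 0.27 and 0.26. In the same fit 9137 of 12355 genes were called at 1% O2 and 8908 at 20% O2, with medians of 0.0034 and 0.0060. Their calls were not split by direction, so the member counts have no such background. The median of the members was no smaller after centring, and the cause of the differences was not tested. Members that follow their neighbours lost their calls, such as ECT2, which had been lower, and CDC25B, which had been higher. Measured against its neighbours in that way, TTK was lower at 1% and 20% O2 (-0.21 and -0.24, adjusted p = 0.000642 and 0.000143). Higher at both levels were CCNB1 (0.23 and 0.22), CCNB2 (0.31 and 0.27) and CDC20 (0.34 and 0.29). So were NEK2 (0.22 and 0.15), PRC1 (0.40 and 0.20) and KIF23 (0.23 and 0.23). Newly higher were FOXM1 (0.29) and HMMR (0.27) at 20% O2. At 1% O2 ASPM (0.22), CENPF (0.20), CENPK (0.26) and CENPM (0.28) were newly higher, and AURKB (-0.21) and TPX2 (-0.20) newly lower. None of these passed uncentred at the level named.

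The oxygen effect differed between labels past the threshold in 2 of the 52 genes, 1 higher and 1 lower under shCHD4, where 2.21% and 2.14% of all genes tested were called (4.36% in either direction). UBE2C, at the library values given above, had an oxygen difference of -0.11 under shCHD4 and 0.27 under shSC (log2 difference -0.37 ± 0.065 SE, limma adjusted p = 0.00232 for the interaction). Correspondingly it was lower in shCHD4 than shSC libraries at 1% O2 (-0.22 ± 0.046, adjusted p = 0.000224) and higher at 20% O2 (0.15 ± 0.046, adjusted p = 0.00597). CENPF had an oxygen difference of 0.069 under shCHD4 and -0.16 under shSC (0.22 ± 0.061, adjusted p = 0.0443), and its difference between labels passed at 20% O2 (-0.28 ± 0.043, adjusted p = 9.71e-06) and not at 1% O2 (-0.059 ± 0.043, adjusted p = 0.22). The UBE2C interaction passed in 17 of 18 alternatives, and the exception was the fit with no variance trend (adjusted p = 0.0754). The CENPF interaction passed in 8 of 18 and ended without shCHD4 1% O2 replicate 1 (adjusted p = 0.249) or 2 (0.0693), shSC 1% O2 replicate 1 (0.0878) or 2 (0.089), shCHD4 20% O2 replicate 1 (0.198) or shSC 20% O2 replicate 2 (0.0897). Centred on the 40 nearest genes, the label differences of UBE2C at 1% O2 (0.095, adjusted p = 0.0866) and of CENPF at 20% O2 (0.025, adjusted p = 0.631) turned in sign and did not pass, nor did the CENPF interaction (0.17, adjusted p = 0.135). The higher UBE2C of shCHD4 at 20% O2 ended without shCHD4 20% O2 replicate 1 (adjusted p = 0.053) or shSC 20% O2 replicate 2 (0.0928).

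Another 108 genes of mitosis, from 7 lists, were read beside the set, with paired values for shCHD4 and for shSC. At 1% against 20% O2, 5 rose and 20 fell under shCHD4, 4.63% and 18.5%, against 12.3% and 10.7% of all genes tested. Under shSC 6 rose and 32 fell, 5.56% and 29.6%, against 17.4% and 17.9%. The share called, 23.1% and 35.2%, was near the 23% and 35.2% of all genes, and the medians were -0.060 and -0.073. Of 11 mitotic entry regulators 4 and 7 fell, among them the phosphatase CDC25A (-0.43, adjusted p = 0.000117 under shCHD4, and -0.41, adjusted p = 8.58e-05 under shSC) and the Greatwall kinase MASTL (-0.25 and -0.18). Of 25 further kinetochore genes 5 and 8 fell, with CENPO at -0.28 and -0.42, and 1 rose under each label. Of 8 condensin genes 4 and 3 fell, NCAPH2 with -0.29 and -0.23. Of 17 APC/C genes 2 fell and 1 rose under shCHD4 and 4 fell and 3 rose under shSC, with ANAPC16 higher under both (0.27 and 0.31). Of 14 cohesin genes 2 fell and 1 rose under each label, SGOL2, shugoshin 2, being the one that rose (0.21 and 0.25). Of 22 spindle and centrosome genes 1 fell and 1 rose under shCHD4 and 4 fell under shSC, with RCC1 lower under both (-0.17 and -0.33). Among 11 DREAM and B-MYB complex genes, which control the set, 2 fell and 1 rose under shCHD4 and 4 fell and 1 rose under shSC, where the pocket protein RBL1 fell (-0.27 and -0.26) and RBL2 rose (0.26 and 0.25).

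Between labels, 56 of the 108 were higher and 30 lower in shCHD4 libraries at 1% O2, 51.9% and 27.8%, against 38.2% and 39.2% of all genes tested. At 20% O2, 56 were higher and 32 lower, 51.9% and 29.6%, against 37% and 38.6%. The share called, 79.6% and 81.5%, was near the 77.4% and 75.6% of all genes, and the medians were 0.14 and 0.15. Of 22 spindle and centrosome genes 14 were higher and 6 lower at 1% O2, and 14 higher and 8 lower at 20% O2. Among the higher were CKAP2 (1.42 and 1.27), SPAG5 (1.47 and 1.22) and KIFC1 (1.23 and 1.32). Of 11 mitotic entry regulators 6 and 5 were higher and 3 lower at each level, with the cyclin F gene CCNF higher (0.75 and 0.93). Of 25 further kinetochore genes 15 were higher and 7 lower at each level. CENPN (0.86 and 0.96) and MAD1L1 (0.94 and 1.13) were among the higher. The cohesin list ran the other way, with 3 higher and 9 lower of 14 at each oxygen level. STAG2 was at -0.78 and -0.87 and the SMC1A subunit at 1.05 and 0.96. In condensin, SMC4 was lower (-0.999 and -0.94) and NCAPD2 higher (0.74 and 0.70). Of the 11 DREAM and B-MYB complex genes, which control the set, 6 were higher and 1 lower at each oxygen level. TFDP1, a partner of E2F proteins, was among the higher (1.20 and 1.11), and MYBL2, which encodes B-MYB, was the lower one (-1.14 and -1.05). These differences of the 108 genes are given uncentred, and the part that follows the genes around them was not tested.

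DNA replication genes, the other large block of the cell cycle, stood beside the mitosis genes with many more falls at low oxygen. Of 40 such genes 31 fell and none rose under shCHD4, and 34 fell and none rose under shSC. These falls were 77.5% and 85% of the list, where 10.7% and 17.9% of all genes tested fell. The medians were -0.27 and -0.35, where the mitosis genes had medians of -0.033 and -0.066. The replicative helicase gene MCM5 was at -0.29 under shCHD4 and -0.78 under shSC. Between labels 32 were higher and 4 lower at 1% O2, 80% and 10%, where 38.2% and 39.2% of all genes tested were. At 20% O2, 32 were higher and 5 lower, 80% and 12.5%, where 37% and 38.6% of all genes were. The medians were 0.69 and 0.58. These counts describe the lists, and the difference between them was not tested.

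**Figure D4:**
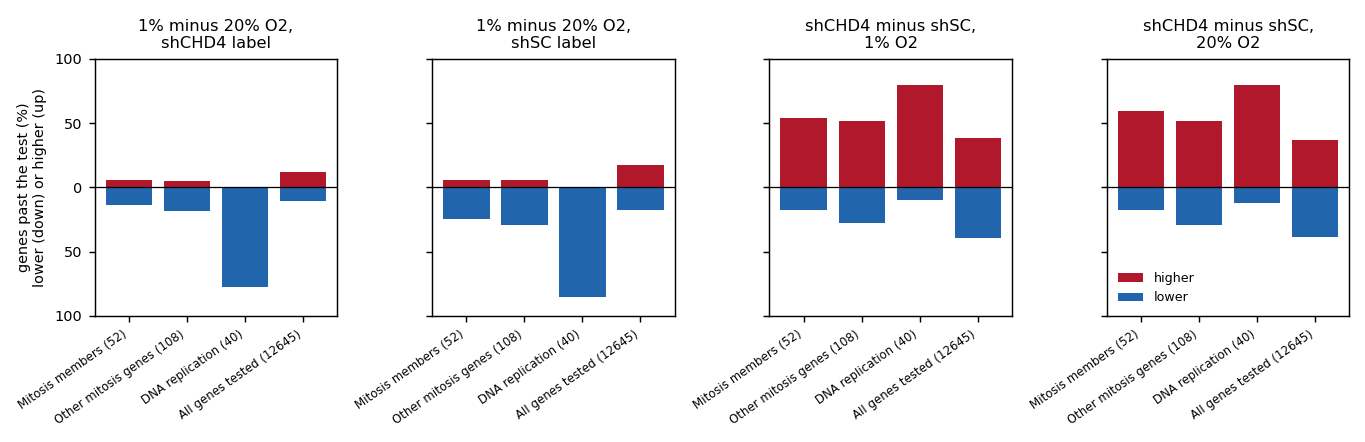
Percent of genes past the test that were higher (red, up) or lower (blue, down) in the 52 mitosis genes, 108 other mitosis genes, 40 DNA replication genes and all 12645 genes tested, in 4 comparisons. At 1% O2 most replication genes fell (31 and 34 of 40) but few mitosis genes did (7 and 13 of 52), and between labels both lists held more higher than lower genes.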

How the data were processed

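Polyadenylated RNA of MDA-MB-231 cells was sequenced in 8 libraries made with a KAPA kit, per the labels. TopHat, featureCounts, edgeR, bcl2fastq 2.17, Picard 1.127, FastQC 0.11.2 and the hg19 build come from the submitters' processing notes, with annotation and strand setting not given in the sources used here. Deposited by the authors under the name FPKM, the table holds a signal in which every value is a whole number of reads (within 0.01 reads) divided by 1 factor per library, with no division by gene length. Reads were recovered from it, and reads of that kind are not independent molecules. Of its 19583 rows, 27 had names turned into dates and 2 names were repeated, and no value column was left unused.

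Genes with a mean of at least 1 were kept (12645). Log2(value + 0.5) was fitted with 1 mean per group by limma 3.58.1 in R 4.3.3 with a variance trend, with Benjamini-Hochberg adjustment over all genes tested and a threshold of 0.05. Each fold is 2 to the power of a difference of log2(value + 0.5), and so understates changes of low genes. An adjusted p in brackets is from this limma fit unless another tool is named, and SE is the standard error of a log2 difference. Comparisons were 1% against 20% O2 within each label, shCHD4 against shSC within each oxygen level, and their interaction. Alternatives were pseudocounts of 0.1 and 1, no filter, no variance trend, TMM factors, quantile normalization, a replicate block, edgeR 4.0.16 and DESeq2 1.42.0 on the recovered reads, and each library left out in turn; centring on 40 neighbouring genes was chosen after seeing the data. The script was tested on simulated data. The genes named in full were 12 core members and the 5 largest called differences in each direction, with other members by role and up to 3 genes of smallest p in each further list. The members, lists and tests were chosen with earlier results of these data known. Gene lengths and exon overlaps came from GENCODE 29, and promoters from RefSeq on GRCh38.p14; the coordinates belong to that build and not to the hg19 of the reads.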

Additional observations from a re-analysis of the deposited data

Results flagged for a closer look

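The interaction of label and oxygen passed for 2 mitosis genes. For UBE2C the oxygen effect under shCHD4 minus that under shSC was -0.37 on the log2 scale (limma adjusted p = 0.00232), with an oxygen difference of -0.11 under shCHD4 and 0.27 under shSC. For CENPF it was 0.22 (limma adjusted p = 0.0443), with an oxygen difference of 0.069 under shCHD4 and -0.16 under shSC. Where the data were centred on the 40 nearest genes, the CENPF interaction no longer passed (0.17, adjusted p = 0.135).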

How the results depend on the processing

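Counts of mitosis genes that moved by over 1.5 times were those by oxygen and the interaction. Under shCHD4 at 1% against 20% O2, leaving out each library gave 1 to 13 called, 1 to 4 higher and 0 to 9 lower, no filter gave 3 called with 1 lower, and no variance trend gave 2 called with 1 higher and 1 lower. Under shSC leaving out each library gave 9 to 19 called, 2 to 4 higher and 5 to 16 lower, no filter gave 8 lower, and no variance trend gave 9 called with 6 lower. For the interaction leaving out each library gave 1 to 5 called, 0 to 4 higher and 1 lower, no filter and centring each gave 1 called with 0 higher, and no variance trend 0 called. Between labels, leaving out each library gave 34 to 38 called at 1% O2 and 36 to 40 at 20% O2. Over all genes, oxygen under shCHD4 gave 2903 called, against 1920 with no filter, 1815 with no variance trend and 2959 by edgeR on the recovered reads, and 1326 to 3468 with each library left out. The interaction gave 551, against 155 with no filter, 155 with no variance trend and 245 to 994 with each library left out.

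The replicate numbers did not pair the libraries: the correlation of same-numbered deviations ran from -0.121 to 0.124 between groups. With the numbers as a replicate block, 7 members were called by oxygen under shCHD4 (2 higher, 5 lower), 16 under shSC, 37 between labels at 1% O2 and 39 at 20% O2, and 1 for the interaction with 0 higher.

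Counting differences that passed in at least 1 of the 2 fits compared, directions reversed in 20 cases, 18 of them on centring on the 40 neighbouring genes, an alternative chosen after seeing the data. At 20% O2 between labels these were CCNB2 0.27, CDC25B -0.037, AURKB -0.078, NEK2 0.15, TPX2 -0.18, CDC20 0.29, CENPF 0.025, KIF2C 0.14, ASPM 0.17, PRC1 0.20 and ECT2 0.0078. At 1% O2 they were AURKB -0.21, TPX2 -0.20, TTK -0.21, CENPF 0.20, KIF2C 0.13, ASPM 0.22 and UBE2C 0.095. Quantile normalization turned CENPF at 1% O2 to 0.11 and, by oxygen under shSC, TPX2 to -0.10. The cause was not tested. With 2 libraries a group there were 4 residual degrees of freedom per gene. To these limma added a median of 13.9 prior degrees of freedom, estimated over all genes tested, so the p-values do not rest on the 4 alone. The smallest oxygen difference that passed among the members was that of CENPE under shCHD4, 0.127 on the log2 scale.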
